A study of Caenorhabditis elegans with 12 samples.

Results

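The pals genes of Caenorhabditis elegans and 5 genes of the same response, eol-1, cul-6, skr-3, skr-4 and skr-5, were followed across RNA of whole young adult worms. Members were chosen by gene symbol, as every gene whose symbol begins with pals- plus those 5. The annotation names 43 such genes, of which 42 had a row in the deposited tables, among 24619 genes in all. They were 37 pals genes and the 5 others, and 39 of the 42 had a row in every table. The remaining gene, pals-12, was not analysed here.

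Each of 4 groups held 3 libraries. The wild-type strain was N2. It and strain BB20, whose animals carry the deletion allele adr-2(ok735) and are written adr-2(-) here, were fed bacteria with an empty RNAi vector (control RNAi) or bacteria targeting sqd-1. All 12 samples were therefore exposed to feeding RNAi, and the strain lacks adr-2 in all its cells, not in a chosen tissue. The labels give growth times of 60 and 72 h for the same animals, so the age is known only as young adult. Nothing in the labels says whether replicates came from separate cultures, so p-values measure the spread between these samples, which may be technical. ADR-2 is an enzyme that converts adenosine to inosine in double-stranded RNA, and sqd-1 encodes an RNA-binding protein. The comparisons address how loss of one relates to depletion of the other.

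The pals family is a large group of worm proteins that share a divergent domain and whose biochemical activity is mostly unknown. Many of its genes belong to the intracellular pathogen response, a transcriptional programme that the intestine switches on when microsporidia or the Orsay virus infect its cells, and that also follows proteotoxic stress. Its best known switch is a pair of neighbouring genes, pals-22, which holds the programme off, and pals-25, which turns it on when pals-22 is lost. A second set of regulators lies elsewhere on the same chromosome, with pals-17 as a repressor and pals-16 and pals-20 acting in the opposite direction. The effector side includes cul-6, a cullin that assembles with the Skp1-related adaptors skr-3, skr-4 and skr-5, a RING protein and F-box proteins into a ubiquitin ligase, and eol-1, a relative of decapping exonucleases named for its role in olfactory learning. The genes pals-5 and pals-14 are commonly used readouts of the programme.

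Depth and library quality bear on every result. Totals ran from 29042770 to 33984832 reads per library, of which 12.9 to 23.8 M lay outside ribosomal RNA genes. The targeted genes matched the labels in every library. In wild-type, sqd-1 fell from 11948 to 15266 normalized reads on control to 1302 to 1342 on its RNAi. In adr-2(-) the same levels were 11472 to 29363 and 1106 to 1863, while adr-2 stood at 0 to 4.05 there. The adr-2 transcript of wild-type animals was also lower on sqd-1 RNAi, at 328 to 470 normalized reads against at least 781 on control (log2 fold change -1.21 ± 0.185 SE, adjusted p 8.82e-05 in limma), so those animals had less adr-2 RNA as well as less sqd-1 RNA. The adr-2(-) libraries of replicate 2 stood apart. Of 14266 genes, 27.2% on control and 32.2% on sqd-1 RNAi lay over 2-fold from the mean of the other 2 libraries of their group, against 16.2% to 20.6% for the other adr-2(-) libraries and 2.31% to 3.95% for wild-type libraries.

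Per-library levels below are normalized read counts on a scale common to the 12 libraries. Fold changes and tests come from fits within each deposited table, on log2(normalized value + 1), with limma and a Benjamini-Hochberg adjusted p under 0.05 as the threshold over all genes with a mean of at least 10. This scale understates the change of low genes. The common-scale means differ slightly from those inside a table, because each table was normalized on its own.

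Most members were close to silent in wild-type animals on control RNAi. Per kilobase of exon, the median pals gene had 2.04 normalized reads, against 56.2 for 19085 protein-coding genes, and 33 of 37 pals genes lay below that coding median. The highest pals gene was pals-24, at 131 per kilobase, followed by pals-34 at 74.8, pals-17 at 68.8 and pals-23 at 66.3. The repressor pals-22 stood at 39.6 per kilobase and its partner pals-25 at 20.4. The ligase genes spanned a wider range, from 557 per kilobase for skr-3 and 262 for skr-4 to 38.0 for cul-6 and 6.29 for skr-5. There were 4 members, pals-10, pals-11, pals-13 and pals-15, with 0 reads in all 3 of these libraries, and 6 members had at most 3 reads in every one of the 12.

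**Figure D1:**
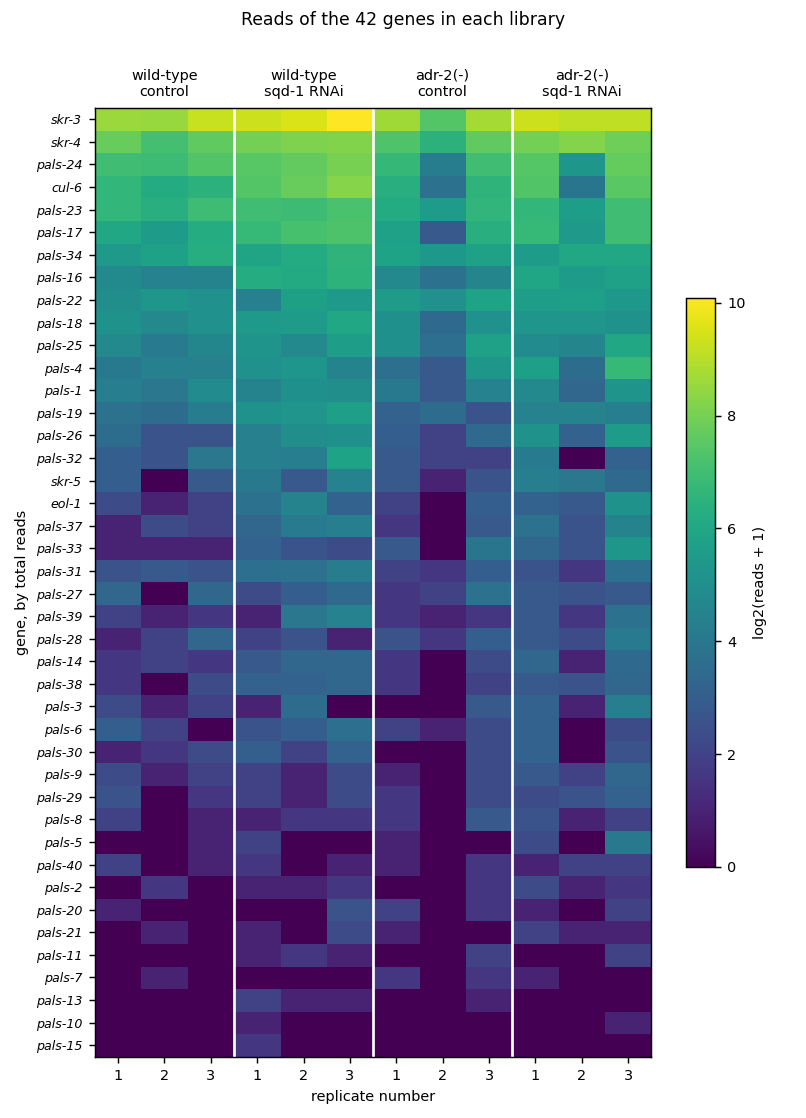
Reads of each of the 42 genes (rows, ordered by total reads) in each library (columns, grouped by genotype and RNAi and ordered by replicate number), coloured by log2(reads + 1). The upper rows carry signal in all groups, 6 of the 42 genes never exceed 3 reads, and many rows darken in replicate 2 of adr-2(-).

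The same genes were grouped by position (WBcel235 coordinates). The largest cluster, chrI:13083321-13144623, holds 14 pals genes, among them the readouts pals-5 and pals-14. Its 13 genes with a row summed to 30 to 36 reads in the wild-type control libraries and 53 to 72 on sqd-1 RNAi, and 1 of them, pals-4, was abundant enough to test. The cluster chrIII:1376945-1406263 holds pals-16, pals-17 and pals-20 with pals-18, pals-19, pals-21 and pals-40. Its summed normalized count was 121 to 140 in wild-type on control RNAi and 260 to 274 on sqd-1 RNAi. The cluster chrIII:120435-137975 holds pals-24, pals-23, pals-22 and pals-25, the latter pair 92 bp apart on the + strand, with a summed count of 275 to 314 on control and 350 to 366 on sqd-1 RNAi. In both of these chromosome III clusters the wild-type sqd-1 RNAi libraries lay above all the control libraries. So did those of the chromosome I cluster (24.5 to 38, then 39.1 to 63.4) and of chrV:12437440-12446995 (5.81 to 7.35, then 17.9 to 36.1). The same held for chrIII:4375154-4387757, with pals-26, pals-27 and pals-28 (9.82 to 20.3, then 26.8 to 37.9). The groups overlapped for chrIV:14539685-14551970, with pals-29 and pals-30 (2.45 to 5.81, then 3.52 to 9.92).

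Some values carry a limit of position or sequence. Exons of 8 members overlap those of another coding gene (pals-3, pals-4, pals-13, pals-18, pals-19, pals-20, pals-32 and skr-5). The library kit kept strand, but whether the counting used it is not given in the sources used here, so overlapping genes on opposite strands are uncertain. Among the genes called in any fit below, that applies to pals-32, pals-4 and skr-5. The neighbours pals-19 and pals-18 share 53 bp on the same strand. How reads matching several relatives were assigned is also not given, which leaves the split between close paralogs uncertain.

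The comparison of sqd-1 RNAi with control RNAi in wild-type asked what depletion of sqd-1 does to these genes in animals with an intact adr-2 gene. Of 16 members abundant enough to test, 7 rose and none fell. They were cul-6, skr-3, pals-16, pals-17, pals-19, pals-26 and pals-32. In the same test 61.1% of the 14489 genes tested were called, 27.3% higher and 33.8% lower, so change was common everywhere. With all 12 libraries in one fit 4 of the 7 were called (pals-16, pals-19, pals-26 and skr-3), where 34.8% of 14266 genes were, 13.2% higher. With a mean of at least 50 required, 7 members were tested and 3 were called (cul-6, pals-17 and skr-3), where 66.8% of 11279 genes were, 25.3% higher. At that filter pals-16, pals-19, pals-26 and pals-32 were too low to test. The median log2 fold change of the 16 was 0.46, with 15 of them above 0, against 0.04 for all genes. Of the 7, pals-26 and pals-32 passed the filter on low values through their sqd-1 RNAi libraries, so they could be tested because they were high there.

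The regulators of the chromosome III cluster moved as follows. The activator pals-16 (chrIII:1399970-1401401) measured 26.1, 25.8 and 18 in the control libraries and 73.4, 62.5 and 67.1 on sqd-1 RNAi. All sqd-1 RNAi libraries were above all controls, by 2.83-fold between means. Its log2 fold change was 1.48 ± 0.252 (SE, adjusted p 0.000212 in limma). The repressor pals-17 (chrIII:1390450-1391852) measured 63.9, 55.2 and 60.4 on control and 107, 123 and 114 on sqd-1 RNAi. These groups did not overlap either, and the log2 fold change was 0.89 ± 0.197 (SE, adjusted p 0.00151 in limma, and 0.216 with all 12 libraries in one fit). A repressor and an activator from the same cluster thus both rose.

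The third regulator there, pals-20, was close to 0. It had 1, 0 and 0 reads on control and 0, 0 and 5 reads on sqd-1 RNAi, too few to test. The neighbour pals-19 (chrIII:1401940-1403460), whose function is not described here, measured 12.6, 13.5 and 14.7 on control and 34.7, 32.6 and 37.6 on sqd-1 RNAi. Its groups were far apart relative to their spread, with a log2 fold change of 1.27 ± 0.287 (SE, adjusted p 0.00178 in limma). The overlapping pals-18 measured 27 to 33.9 and 41.4 to 48.7, which also did not overlap, yet its log2 fold change of 0.47 did not pass the test (adjusted p 0.113 in limma, and 0.0296 in edgeR).

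Neither pals-22 nor pals-25 passed the limma test. The repressor pals-22 (chrIII:132418-134401) measured 30.0, 49.1 and 27 on control and 19.8, 45.8 and 31 on sqd-1 RNAi. Replicate 2 was the highest library of both groups, and the groups overlapped throughout. The log2 fold change was -0.20 (95% interval -0.94 to 0.55, adjusted p 0.636 in limma), and its sign turned in edgeR (0.05). The activator pals-25 (chrIII:134494-137975) measured 25.2, 20.9 and 19.6 on control and 35.7, 22.9 and 36.1 on sqd-1 RNAi. One sqd-1 RNAi library lay within the control range, and the log2 fold change was 0.45 (95% interval -0.18 to 1.09, adjusted p 0.195 in limma, and 0.0491 in edgeR with the replicate block). The intervals leave room for changes of either gene within those bounds.

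Among the ligase genes, the cullin cul-6 (chrIV:12586485-12590451) measured 98.7, 88.4 and 72.7 on control and 165, 189 and 224 on sqd-1 RNAi. Every sqd-1 RNAi library was above every control, by 2.17-fold between means. The log2 fold change was 1.11 ± 0.199 (SE, adjusted p 0.000321 in limma, and 0.266 with all 12 libraries in one fit). The adaptor skr-3 (chrV:16121084-16122649), the most abundant member, measured 371, 449 and 493 on control and 627, 638 and 801 on sqd-1 RNAi. It rose with a log2 fold change of 0.61 ± 0.177 (SE, adjusted p 0.00855 in limma). The adaptor skr-4 (chrV:19924224-19925033) measured 208, 164 and 162 on control and 250, 246 and 215 on sqd-1 RNAi, without overlap. Its log2 fold change of 0.38 missed the threshold in limma (adjusted p 0.0789) and DESeq2 (0.0745). It passed in edgeR (0.0122), and in limma once the replicate number entered as a block (0.0391). The adaptor skr-5 was too low to test, at 7, 0 and 6 reads on control and 16, 6 and 21 reads on sqd-1 RNAi.

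The last pair of called genes lie outside the clusters of regulators. The gene pals-26 (chrIII:4375154-4378907) measured 10.6, 6.14 and 4.08 on control and 19.8, 27.3 and 23.6 on sqd-1 RNAi. Its log2 fold change was 1.68 ± 0.398 (SE, adjusted p 0.00248 in limma). Its neighbours pals-27 and pals-28 stayed at 13 and 17 reads or fewer in every library of the study. The gene pals-32 (chrV:2896610-2898527) measured 6.78, 6.14 and 12.3 on control and 19.8, 16.7 and 42 on sqd-1 RNAi. The highest value is replicate 3, and the log2 fold change of 1.45 ± 0.424 (SE, adjusted p 0.00933 in limma) fell to 1.07 with an adjusted p of 0.0676 without that library. The call was also lost without replicate 1 of both groups (1.46, adjusted p 0.0535) and with all 12 libraries in one fit (0.199).

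**Figure D2:**
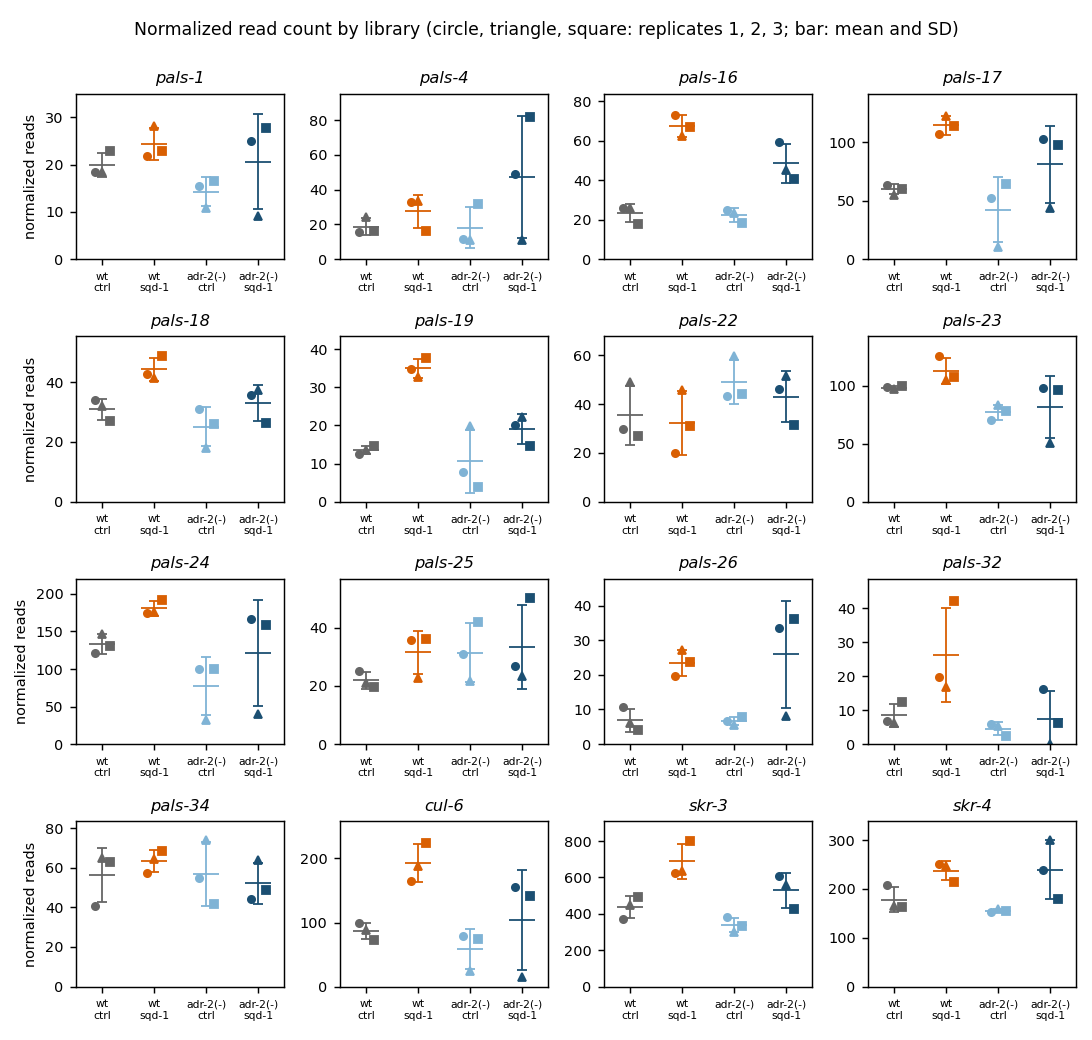
Normalized read count on the common scale (vertical axes, from 0) of the 16 genes tested in wild-type, in the 4 groups; symbols are libraries and bars the mean and SD of 3. In wild-type 11 of the 16 genes have all sqd-1 RNAi libraries above all controls, among them pals-26 and pals-32, which passed the filter only because they were high there. In adr-2(-) the replicate 2 triangles sit low for cul-6, pals-17 and pals-24 and not for skr-3 or pals-16.

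Of the 9 other tested members, pals-24 came nearest to the threshold, with 121 to 147 normalized reads on control and 174 to 192 on sqd-1 RNAi. Its log2 fold change of 0.40 had a limma adjusted p of 0.0675, which became 0.0440 with the replicate block and 0.00951 in edgeR. The block called 9 members in all, adding pals-24 and skr-4 to the 7, where it called 65.8% of all genes, 29.7% higher and 36.1% lower. In edgeR the block, chosen after seeing the data, called 11 members, these 9 with pals-18 and pals-25, where it called 69.4% of all genes, 39.1% higher. Without the block edgeR called 10 of them, all but pals-25, where it called 64.8% of all genes, 36.0% higher. The remaining members pals-1, pals-4, pals-23 and pals-34 had log2 fold changes of 0.15 to 0.45. Counted without any test, 11 of the 16 tested members had all sqd-1 RNAi libraries above all controls, against 31.7% of all genes tested, and none had them all below, against 36.4%. Among the 11, pals-26 and pals-32 passed the filter only because they were high there.

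The members left out of the test by their low counts were examined as reads. The readout pals-5 had 0, 0 and 1 reads on control and 3, 0 and 0 reads on sqd-1 RNAi, too few for a change to be assessed at this depth. The readout pals-14 had 2, 3 and 2 reads on control and 6, 9 and 9 reads on sqd-1 RNAi. The groups of pals-14 did not overlap, but all 6 libraries were under 10 reads. The eol-1 gene (chrV:13979462-13980907) had 4, 1 and 3 reads on control and 13, 22 and 8 reads on sqd-1 RNAi, again without overlap. The gene pals-37 had 1, 4 and 3 reads and then 9, 17 and 19. The authors' deposited table gave both of the latter as higher, eol-1 with a log2 fold change of 2.27 (adjusted p 0.0203) and pals-37 with 2.20 (adjusted p 0.0195). Summed over all 26 untested members, the normalized count was 36.8 to 61 per control library and 113 to 121 per sqd-1 RNAi library.

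Over all 42 members, 19 had every sqd-1 RNAi library above every control, against 23.6% of 23206 genes with a row. Without a filter on low values 14 members were called, all higher, where 39.0% of all genes were called, including 18.0% higher and 21.0% lower. The 14 included eol-1, pals-13, pals-14, pals-33, pals-37, pals-38 and skr-5. Of these, pals-13 had 0 reads in every control library and 3, 1 and 1 reads on sqd-1 RNAi. Both pals-13 and pals-11 (0 reads in every control library, then 1, 2 and 1) also stood among the 19. The authors' deposited table called 9 of the 32 members to which it gave an adjusted p, all higher, where it called 47.7% of its genes, with 20.6% higher.

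Other genes of the pathway were read from a fixed list. The RING partner of the ligase, rcs-1, rose with cul-6 (log2 fold change 0.55 ± 0.198 SE, adjusted p 0.0279 in limma), whereas the F-box partners fbxa-75 and fbxa-158 were too low to test. Of 4 regulators, pnp-1, a purine nucleoside phosphorylase that represses the response, rose by 0.45 on the log2 scale (adjusted p 0.0227), and drh-1, a RIG-I-like sensor of viral RNA, fell by 0.63 (adjusted p 0.00277). The activating transcription factor zip-1 and the STAT-like repressor sta-1 each had a log2 fold change of 0.28, below the threshold (adjusted p 0.281 and 0.206). Of 7 other response genes, B0507.8 (1.30, adjusted p 0.0357) and sdz-6 (1.45, adjusted p 0.0290) rose, ddn-1 did not pass (1.01, adjusted p 0.0819), and the other 4, among them chil-27, were too low to test.

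The antiviral RNA interference genes went the other way. Of the 4 on the list, drh-1, the Argonaute gene rde-1 (log2 fold change -0.80, adjusted p 0.00143) and the double-stranded RNA binding gene rde-4 (-1.26, adjusted p 4.73e-05) fell. The fourth, the Dicer gene dcr-1, stood at -0.43 with an adjusted p of 0.0679, which became 0.0182 with the replicate block.

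Tissue markers moved in the same libraries. In whole worms, a change in cells of a type, in RNA per cell and in developmental stage cannot be told apart. Intestinal markers, from the tissue in which the response is best known, had a median log2 fold change of -0.16. Of these 9, 1 (ifb-2) rose and none fell, while with the replicate block vha-6 (-0.32, adjusted p 0.0293) and pho-1 (-0.37, adjusted p 0.0156) fell too, and their summed level was 23824 to 29602 on control and 24193 to 26997 on sqd-1 RNAi. All 6 oocyte markers fell (summed level 63436 to 90187, then 6074 to 15650), as did 5 of 6 germline markers (33693 to 43221, then 13580 to 18418). All 7 sperm markers rose (2311 to 3032, then 7282 to 9676). Of 6 body wall muscle markers 5 rose (73897 to 91052, then 114935 to 126542). Of 6 epidermal markers 4 rose, namely dpy-7, rol-6, bli-1 and sqt-3, and 1, col-19, fell, though not under TMM or upper-quartile scaling. Their median log2 fold change was 2.01 and the highest 3.98 (dpy-7). Their summed level, 20087 to 24193 and then 18877 to 22572, is mostly that of col-19. The 4 that rose also differed widely within a group, as bli-1 did in adr-2(-) on control RNAi (51.2, 822 and 3.96). Of 5 neuronal markers 3 rose and 1 fell (2251 to 2329, then 2357 to 2467). No marker was at 0 in all libraries. The part of tissue composition or developmental stage in the rise of the members was not tested.

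**Figure D3:**
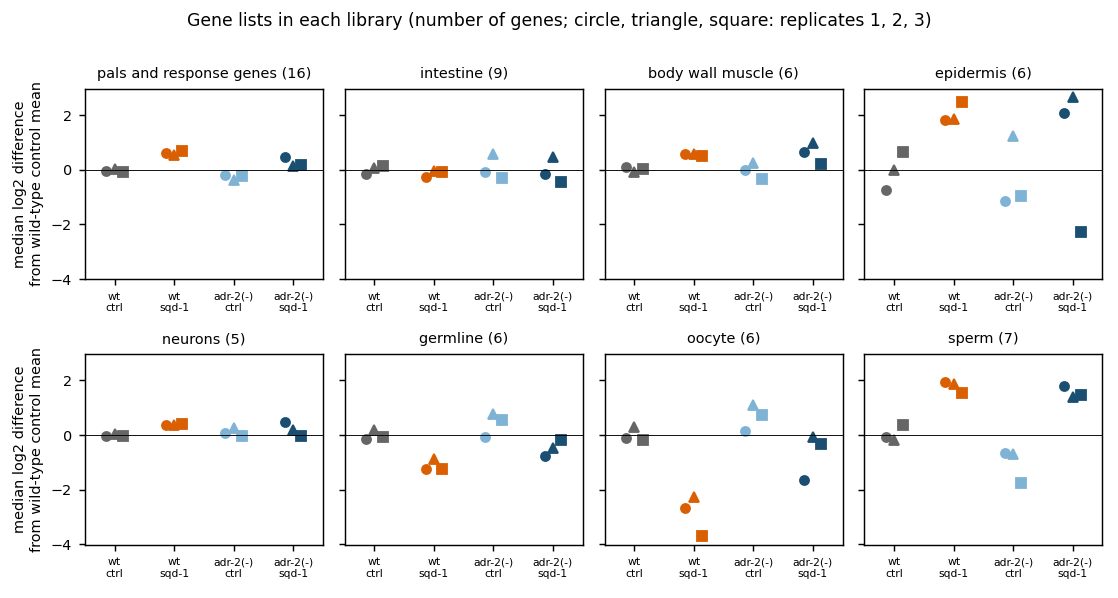
Median log2 difference of each gene list (vertical axis, from the wild-type control mean; number of genes in brackets) in each of the 12 libraries. The members sit at 0.52 to 0.67 in the wild-type sqd-1 RNAi libraries, where intestinal markers sit at -0.26 to -0.05; in adr-2(-) the members reach 0.15 to 0.46 on sqd-1 RNAi.

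The comparison of sqd-1 RNAi with control RNAi in adr-2(-) asked for the same effect without ADR-2. None of 16 tested members was called by limma, in a test that called 0.0284% of 14068 genes. Of the 16, 3 had an unadjusted p under 0.05 (pals-16, pals-26 and skr-3), against 21.2% of all genes. None was called by edgeR (0.0213% of all genes called), DESeq2 (10.2%) or the authors' deposited table (8.67%). Once the replicate number was entered as a block, which pairs the libraries of this genotype, 5 members rose, namely pals-16, pals-17, pals-26, skr-3 and skr-4. The block called 45.6% of all genes, 17.1% higher and 28.5% lower. In edgeR the block called 7, these 5 with pals-4 (adjusted p 0.0298) and pals-24 (0.0327), where 43.9% of all genes were called, 22% higher. With all 12 libraries in one fit 2 were called, pals-16 and skr-3, where 22.3% of all genes were, 11.2% higher. In this genotype pals-26 and pals-33 passed the filter on low values through their sqd-1 RNAi libraries. The median log2 fold change of the 16 was 0.61, against -0.03 for all genes.

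The activator pals-16 measured 25.1, 23.5 and 18.2 on control and 59.6, 45.5 and 40.8 on sqd-1 RNAi. The groups did not overlap, and the log2 fold change was 1.12 ± 0.357 (SE, adjusted p 0.166 in limma, and 0.0201 with the block). The adaptor skr-3 measured 382, 302 and 334 on control and 609, 557 and 424 on sqd-1 RNAi, again without overlap. Its log2 fold change was 0.66 ± 0.266 (SE, adjusted p 0.223 in limma, and 0.0204 with the block). The adaptor skr-4 measured 153, 159 and 154 on control and 238, 300 and 179 on sqd-1 RNAi, with a log2 fold change of 0.62 (adjusted p 0.262 in limma, and 0.0480 with the block).

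For pals-26 the control libraries held 6.76, 5.42 and 7.91 and the sqd-1 RNAi libraries 33.6, 8.10 and 36.2, so replicate 2 barely exceeded the controls. Its log2 fold change was 1.60 ± 0.648 (SE, adjusted p 0.224 in limma, and 0.0381 with the block). The repressor pals-17 measured 52.1, 10.8 and 64.1 on control and 103, 43.5 and 97.8 on sqd-1 RNAi. Replicate 2 was the lowest library of each group by a wide margin, and within each pair of equal number the sqd-1 RNAi library was the higher. The log2 fold change was 1.19 ± 0.726 (SE, adjusted p 0.350 in limma, and 0.0329 with the block).

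The cullin cul-6 gave overlapping groups in this genotype. It measured 79.2, 23.5 and 73.6 on control and 156, 14.2 and 141 on sqd-1 RNAi. Replicates 1 and 3 on sqd-1 RNAi were above every control library of either genotype, while replicate 2 was below all of them. The differences within pairs were 0.97, -0.69 and 0.93 on the log2 scale, and the log2 fold change was 0.43 ± 0.975 (SE, adjusted p 0.807 in limma, and 0.390 with the block). Without any 1 of 3 libraries, control replicate 2 or sqd-1 RNAi replicate 1 or 3, its sign turned, to between -0.13 and -0.10, and it reached 1.52 without sqd-1 RNAi replicate 2.

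The libraries of replicate 2 were not low for all members. As a percentage of the mean of the other 2 libraries, replicate 2 held 30.8% on control and 9.55% on sqd-1 RNAi for cul-6, 32.7% and 25% for pals-24, and 18.7% and 43.4% for pals-17. The same libraries held 84.3% and 108% for skr-3, 104% and 144% for skr-4, 109% and 90.7% for pals-16, and 153% and 137% for pals-34. The median intestinal marker was high there, at a log2 difference of 0.59 and 0.48 from the wild-type control, against -0.46 to -0.08 in the other adr-2(-) libraries. Not all of these markers were high, since elt-2 measured 170 and 192 and nhx-2 806 and 760, below every wild-type control library. The antiviral genes had a median of -1.51 and -2.47 there but did not move together. The levels were low for rde-1 (211 and 108) and dcr-1 (240 and 130), and 1027 and 529 for drh-1. The gene rde-4 was instead high, at 3259 and 1846, against 1486 to 1809 in wild-type control. The part of this library difference in the results for cul-6 and pals-17 was not tested.

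Replicate 3 on sqd-1 RNAi held the highest values of several members. The median epidermal marker also stood apart in that library, at a log2 difference of -2.29 from the wild-type control, against 2.08 and 2.65 in the other 2 of its group. The low markers were dpy-7, rol-6, bli-1 and sqt-3, at 5.39, 6.93, 6.16 and 54.7. The markers elt-3 (307, against 309 and 374) and col-19 (17933, against 15215 and 28646) did not stand apart. The part of the low markers' difference in the values below was not tested. In adr-2(-), pals-5 had 1, 0 and 0 reads on control and 4, 0 and 16 reads on sqd-1 RNAi. The eol-1 gene had 3, 0 and 7 reads on control and 8, 6 and 34 on sqd-1 RNAi, and pals-33 had 6, 0 and 14 and then 9, 5 and 39. In the same library pals-4 reached 81.7 normalized reads, against 10.8 to 49.0 in the other adr-2(-) libraries, and, of the 7 other response genes, ddn-1 and B0507.8 reached 97.8 and 53.2, the highest of the 12 libraries for both. The other 5 had no peak there, among them sdz-6, at 19.3 against 22.3 in replicate 2 and 24.8 in a wild-type library, and F26F2.1, at 6.93 against 9.61 in replicate 1. The readout pals-14 had no marked peak there either, since it had 2, 0 and 4 reads on control and 9, 1 and 10 on sqd-1 RNAi. The low genes pals-20 (3, 0 and 2 reads, then 1, 0 and 3) and skr-5 (6, 1 and 5 reads, then 19, 15 and 10) had no peak in that library.

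The pals-22 and pals-25 pair again gave overlapping groups. The repressor measured 43.5, 59.6 and 44.3 on control and 46.1, 51.6 and 31.6 on sqd-1 RNAi, with a log2 fold change of -0.17 (95% interval -1.0 to 0.67, adjusted p 0.799 in limma). The activator measured 30.9, 21.7 and 41.9 on control and 26.9, 23.3 and 50.1 on sqd-1 RNAi, with its lowest value in replicate 2 of each group. The gene pals-19 measured 7.72, 19.9 and 3.96 on control and 20.2, 22.3 and 14.6 on sqd-1 RNAi, so here replicate 2 was the high control. The gene pals-32 measured 5.79, 5.42 and 2.37 on control and 16.3, 0 and 6.16 on sqd-1 RNAi.

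Counted without a test, 4 of the 16 tested members had all sqd-1 RNAi libraries above all controls in adr-2(-) (pals-16, pals-26, skr-3 and skr-4, of which pals-26 passed the filter only because it was high there), against 14.2% of all genes tested, and none had them all below, against 14.4%. Over the 41 members with a row there the count above was 11, against 11.5% of all genes. The additional ones were eol-1, skr-5, pals-9, pals-29, pals-37, pals-38 and pals-39.

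**Figure D4:**
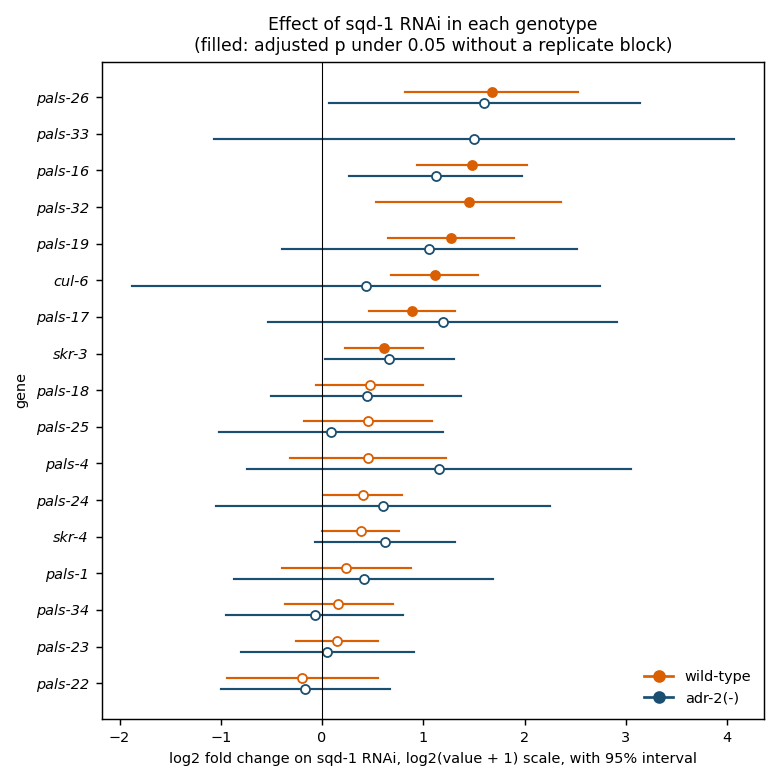
Log2 fold change of sqd-1 RNAi against control RNAi with its 95% interval (horizontal axis) for the members tested in wild-type (orange) and adr-2(-) (blue); filled points passed the adjusted p threshold without a replicate block. The 7 filled points are all wild-type and above 0, and the adr-2(-) intervals are wider, widest for pals-33 (-1.07 to 4.07) and cul-6 (-1.88 to 2.74).

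A difference between genotypes in the response to sqd-1 RNAi was tested as an interaction over the 12 libraries. None of 16 members was called, in a test that called 0.00% of 14266 genes. No member had an unadjusted p under 0.05 in limma, edgeR or DESeq2, where 1.44%, 1.89% and 1.83% of all genes did. The median interaction of the 16 was -0.11 on the log2 scale, against 0.05 for all genes. For cul-6 it was -0.74 (95% interval -3.14 to 1.65), and its sign turned to 0.36 once replicate 2 of that group on sqd-1 RNAi was left out. For pals-32 it was -1.56 (95% interval -4.23 to 1.11). This gene passed the filter on low values only through its wild-type sqd-1 RNAi libraries (mean 26.2, against at most 8.39 in the other groups). The intervals were narrower for skr-3 (-0.67 to 0.62) and pals-16 (-1.26 to 0.41), which limits how far the effects on those genes could differ. The 7 calls in wild-type and their absence in adr-2(-) without a block do not show a difference between genotypes.

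Loss of adr-2 on control RNAi asked what the enzyme does to these genes by itself. None of 14 tested members was called in a test that called 0.00737% of 13566 genes. None was called in edgeR or DESeq2 either, which each called 0.00737% of all genes. No member had an unadjusted p under 0.05 in limma, edgeR or DESeq2, where 7.43%, 6.02% and 7.22% of all genes did. The median log2 difference, adr-2(-) minus wild-type, was -0.40, against -0.04 for all genes, and 12 of the 14 were below 0. The 2 above 0 were pals-22 and pals-25. In 4 of the 14, pals-1, pals-23, pals-24 and skr-4, all adr-2(-) libraries lay below all wild-type ones, against 8.81% of all genes tested.

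The repressor pals-22 measured 27 to 49.1 in wild-type and 43.5 to 59.6 in adr-2(-), overlapping, with a log2 difference of 0.43 (95% interval -0.35 to 1.22, adjusted p 0.636 in limma). For pals-24 the wild-type libraries held 121, 147 and 131 and those without adr-2 held 99.5, 32.5 and 99.7. The groups were separate, and the log2 difference was -1.0 ± 0.465 (SE, adjusted p 0.600 in limma), and -0.45 without 1 library, adr-2(-) control replicate 2. For cul-6 the log2 difference was -0.78 ± 0.495 (SE, adjusted p 0.609 in limma), and -0.21 without that library. For pals-17 it was -0.88 ± 0.640 (SE, adjusted p 0.625 in limma), and -0.09 without it.

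Loss of adr-2 on sqd-1 RNAi gave no call among 20 tested members, in a test that called 0.00% of 14697 genes. A single member, pals-19, had an unadjusted p under 0.05 in limma, and edgeR and DESeq2 called none, with 1 and 2 at that unadjusted level. The shares of all genes at that level were 12.1%, 12.3% and 12.4% in the 3 tools. EdgeR called 0.00% of all genes here and DESeq2 1.71%. For pals-19 the levels were 34.7, 32.6 and 37.6 in the presence of ADR-2 and 20.2, 22.3 and 14.6 in its absence, without overlap (log2 difference -0.88 ± 0.307 SE, adjusted p 0.388 in limma). The median over the 20 was -0.34, against -0.07 for all genes. In 9 of the 20 all adr-2(-) libraries lay below all wild-type ones, against 10.2% of all genes tested, and in none above, against 14.5%. The 9 were cul-6, skr-3, pals-16, pals-17, pals-18, pals-19, pals-23, pals-24 and pals-32. Of these, pals-32 passed the filter on low values only through its wild-type libraries (mean 26.2, against 7.5 in adr-2(-)), so it could be tested because it was high there. Another of the 20, pals-33, passed only through its adr-2(-) libraries (mean 14.6, against 5.1 in wild-type) and counts in the median.

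The sizes behind that count were unequal. For cul-6 the log2 difference was -1.48 ± 0.868 (SE, adjusted p 0.477 in limma), and it shrank to -0.39 without adr-2(-) replicate 2. For pals-32 it was -2.40 ± 1.06 (SE, adjusted p 0.422 in limma), and -1.20 without the same library. For pals-24 it was -0.83 ± 0.540 (SE, adjusted p 0.501 in limma), and -0.18 without it. The adaptor skr-4 differed by -0.03 (95% interval -0.66 to 0.60). The comparisons of genotype share their libraries with those of RNAi, so their values are not independent.

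In the last deposited comparison, adr-2(-) on sqd-1 RNAi was set against wild-type on control RNAi. None of 15 tested members was called, where 0.0422% of 14206 genes were, and none was called by edgeR or DESeq2, which called 1.37% and 6.22% of all genes. The 2 members with an unadjusted p under 0.05 in limma were pals-16 (1.03 ± 0.319 SE, adjusted p 0.202) and pals-26 (1.59 ± 0.653 SE, adjusted p 0.303), against 15.9% of all genes. Here and below, pals-26 passed the filter on low values only through its adr-2(-) libraries (mean 26, against 6.96 in wild-type control), so it could be tested because it was high there. Without adr-2(-) sqd-1 RNAi replicate 2 there were 2 calls, pals-26 with a log2 difference of 2.25 (adjusted p 0.0215) and pals-4, named because it was called there, where 13.1% of 14141 genes were called. Without replicate 2 of both groups 1 member was called, pals-4, where 6.41% of 14220 genes were. The authors' deposited table called 5.39% of its genes and 1 member of 24, pals-33, with a log2 fold change of 3.90 (adjusted p 0.0272). It had 1, 1 and 1 reads in the wild-type libraries and 9, 5 and 39 in the others.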

How the data were processed

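Poly-A RNA of whole worms was sequenced as 12 stranded libraries. The authors aligned reads with STAR 2.7.10b and used DESeq2, per the submitters' processing notes. The counter, its use of strand and the genome build are not given in the sources used here. The authors deposited 5 pairwise tables of 6 libraries each. Per the file headers these hold a normalized signal per gene and library, the log2 fold change, its error, a test statistic score, a p-value and an adjusted p-value. The signal is reads divided by 1 size factor per library. All 690228 deposited values came out as whole reads, within 0.01 read, so counts could be recovered, and 0 reads differed between tables. Symbols came from the names table (22915 IDs matched) and coordinates from the Ensembl annotation of WBcel235.

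Each comparison was fitted within its table in limma 3.58.1 under R 4.3.3 (moderated statistics, eBayes with trend set) after log2(value + 1). Genes needed a mean of 10 or more, and p-values were adjusted over all such genes. The interaction used the recovered reads of all 12 libraries, scaled by median-of-ratios factors, as did the per-library levels. The fitting code was tested on simulated data. Alternatives were other pseudocounts (0.1 and 10), filters (none and 50), upper-quartile and TMM scaling, untrended eBayes, a replicate block, all libraries in one fit, each library left out, edgeR 4.0.16 and DESeq2 1.42.0. Reads carry no molecular identifiers.

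Replicate numbers come from the sample titles. As a check, each library was expressed as its deviation from its group mean. Libraries sharing a number then correlated, over genes, at 0.25 to 0.27 in wild-type and 0.64 to 0.82 in adr-2(-), and unlike numbers at -0.17 to -0.09 and -0.68 to 0.17. Deviations from a group mean cancel out for each gene, so higher values for like numbers force lower ones for unlike numbers. The contrast between like and unlike numbers is therefore partly built in. The numbers were taken to pair libraries within a genotype. Libraries sharing a number across genotypes gave -0.52 to 0.21, and no pairing was used there. Genes given library by library were the regulators, readouts, ligase genes and eol-1, and any member called. The members, lists and tests were chosen with earlier results of these data known.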

Additional observations from a re-analysis of the deposited data

How the results depend on the processing

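Among 815 gene values under the alternatives, 765 kept direction and side of the threshold. In wild-type 7 of 16 tested members were called. Pairs in brackets give the share of all genes called, then the share called higher. There were 14 calls with no filter (39.0%, 18.0%) and 3 among 7 tested members with a mean of at least 50 (66.8%, 25.3%). EdgeR called 10 (64.8%, 36.0%), upper-quartile scaling 10 (63.8%, 33.5%) and TMM scaling 9 (62.6%, 32.3%). With the replicate block, chosen after seeing the data, edgeR called 11 (69.4%, 39.1%). With all 12 libraries in one fit 4 were called (34.8%, 13.2%), where cul-6 (adjusted p 0.266 in limma), pals-17 (0.216) and pals-32 (0.199) were lost. Leaving out libraries gave 6 to 7, where 49.0% to 59.2% of all genes were called. The median of all genes shifted by 0.13 under TMM, 0.16 under upper-quartile scaling and 0.20 in edgeR; relative to it the members' median was 0.42, and 0.41 to 0.46 under these. In adr-2(-), 0 calls became 5 with the replicate block, 7 in edgeR with the block and 2 with all 12 libraries in one fit; in limma or edgeR the block changed no member call beyond those named in the text. For adr-2(-) on sqd-1 RNAi against wild-type control, leaving out libraries gave 0 to 2 calls, 1 without replicate 2 of both groups (pals-4), where 0.00% to 13.1% of all genes were called.

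Signs turned in these cases, and the cause was not tested. In wild-type pals-22 turned to 0.05 in edgeR and 0.02 in edgeR with the block, and ran from -0.49 to 0.10 on leaving out libraries, where pals-34 ran from -0.07 to 0.29. In adr-2(-) pals-22 ran from -0.32 to 0.02 and cul-6 from -0.13 to 1.52. For cul-6 in adr-2(-) on sqd-1 RNAi against wild-type control, -0.33 became 0.37 in edgeR and 0.27 in DESeq2, and ran from -0.90 to 0.76 on leaving out single libraries, with 0.77 without replicate 2 of both groups. Its interaction ran from -1.33 to 0.36. At this depth 22 members could be tested in no comparison.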
